A study of Homo sapiens with 8 samples.

Results

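Bone morphogenetic protein (BMP) signaling and the ID genes downstream of it were examined in MDA-MB-157 cells, an established estrogen receptor–negative breast cancer line, at 2 glucose concentrations. The set held 10 genes of the 21059 in the expression table: the ligand BMP4, the protease BMP1, the receptor BMPR2, the secreted antagonists GREM1 and DAND5, the inhibitory SMAD6, and the targets ID1, ID2, ID3 and ID4. All 10 symbols were found, and all 10 reached a mean of 1 CPM, where CPM is a count scaled to the size of its library. The genes were chosen from the measured contrast of high with low glucose, so their differences between the groups are given as a description, with no test.

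The study set a control medium with 5 mM glucose against 25 mM glucose, its model of hyperglycemia. Cells were kept in T25 flasks with either concentration for 48 hours and RNA was then sequenced, with 4 libraries in each group and 8 in all. Per the study's methods, all cells were first conditioned in low-glucose medium, and the medium used during treatment held no serum. Whether the replicates were separate experiments is not stated, so the p-values below measure only the spread between these libraries. An osmotic control was not analysed here, and the values describe a single cell line at a single time.

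BMPs are secreted ligands of the TGF-β superfamily that bind paired type I and type II serine/threonine kinase receptors. The receptors phosphorylate SMAD1, SMAD5 and SMAD9, which join SMAD4 in the nucleus and induce the ID genes, whose short helix-loop-helix proteins lack a DNA-binding region and hold E proteins away from DNA. Secreted antagonists capture ligands outside the cell, tolloid proteases such as BMP1 cleave one of these antagonists, chordin, and SMAD6 and SMAD7 are feedback inhibitors inside the cell.

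The commonest CPM value above 0 in each library, 0.0706 to 0.0889 CPM, was taken as 1 read. On that scale the libraries held an estimated 9721637 to 12482546 reads in the table. The floor was set at 3 reads, 0.212 to 0.267 CPM. Such floors cover counting error only. VIM (4091 CPM in the control group and 2967 CPM at high glucose), KRT18 (233.5 and 170.1 CPM) and KRT8 (130.8 and 88.3 CPM) were well detected, CDH1 stood near 1 CPM (0.949 and 0.961 CPM), and KRT19 and the receptor gene ESR1 were below the floor in the group means. Of the 6 markers of the line, VIM, KRT18 and KRT8 were lower (limma, adjusted p = 0.00224, 0.00149 and 0.00117) at high glucose and EPCAM was higher, at 4.50 and 6.996 CPM (limma, adjusted p = 0.00104). The other hormone receptor gene, PGR, was at 4.76 and 5.35 CPM (limma, adjusted p = 0.255). Of 5 markers of blood and endothelial cells, CD3E was not in the table and PTPRC was below the floor in every library, while CD68 was at 11.1 and 12.1 CPM (limma, adjusted p = 0.494). Endothelial PECAM1 was higher at high glucose, at 1.0 and 2.13 CPM (limma, adjusted p = 0.00775), and CDH5 lower, at 0.279 and 0.0206 CPM (limma, adjusted p = 0.0116), with the CDH5 means near or below the floor. The part of these markers in the results below was not tested. High glucose replicate 1 stood apart from the other libraries of its group. For each library, the deviation from the mean of the other libraries of its group was taken across 11223 genes. The Spearman correlation of this deviation with transcript length was -0.65 for high glucose replicate 1. It was 0.25, 0.34 and 0.47 for high glucose replicates 2, 3 and 4 and -0.13 to 0.06 at low glucose. High glucose replicate 1 is part of the mean that replicates 2, 3 and 4 were set against. Their positive values are therefore not separate from its own and do not show a length trend in those libraries. Genes are not independent replicates, and results of single genes that rest on high glucose replicate 1 are therefore given with and without it.

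In 8 of the 10 genes, all 4 libraries of a glucose group lay on a single side of the other 4. BMP4, SMAD6 and ID4 were higher at high glucose, and BMP1, ID1, ID3, GREM1 and DAND5 were lower. BMPR2 and ID2 overlapped between the groups. Of all 21059 genes, 44.5% had groups that did not overlap, 20.9% with high glucose higher and 23.6% with high glucose lower. Nothing is read from the count against this background, since the contrast chose the genes. Values are CPM, scaled between libraries by trimmed mean of M values (TMM), and each log2 difference is high minus low glucose on log2(CPM + 1), with the standard error (SE) over 4 and 4 libraries.

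**Figure D1:**
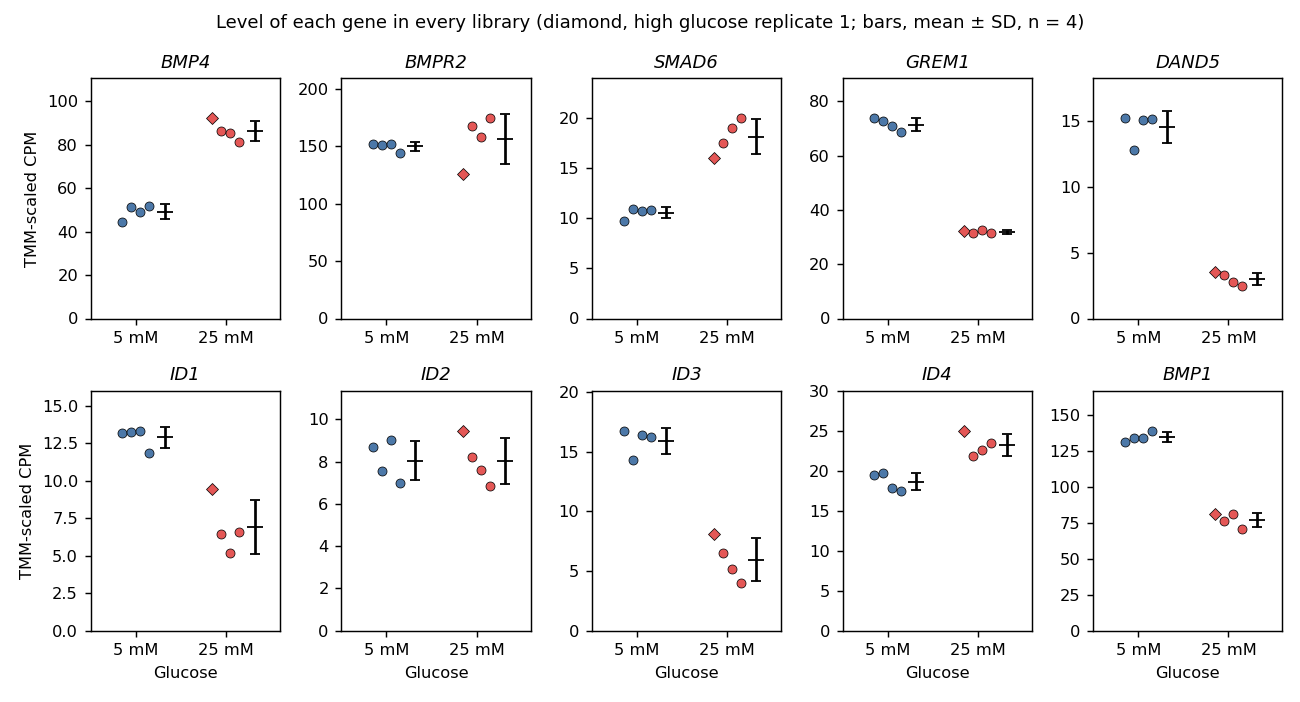
TMM-scaled CPM (vertical axis, from 0) of each of the 10 genes in the 4 libraries at 5 mM glucose (blue) and the 4 at 25 mM glucose (red). Bars show mean ± SD (n = 4) and the diamond marks high glucose replicate 1. DAND5 lay at 12.8 to 15.2 CPM at 5 mM and at 2.49 to 3.53 CPM at 25 mM, whereas ID2 and BMPR2 overlapped between the groups.

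Among the ligands, BMP4 (ENSG00000125378.16), which signals through SMAD1, SMAD5 and SMAD9 and in the embryo patterns mesoderm, lies on the minus strand of GRCh37 chromosome 14 from 54416454 to 54425479. Its levels were 44.3, 51.3, 49.01 and 51.8 CPM in low glucose replicates 1 to 4 and 92.1, 86.2, 85.3 and 81.1 CPM in high glucose replicates 1 to 4. Every high glucose library stood well above every low glucose library. BMP4 averaged 49.1 ± 3.45 CPM at 5 mM and 86.2 ± 4.56 CPM at 25 mM glucose (SD, n = 4 each), 1.76-fold higher, with a log2 difference of 0.80 ± 0.06 (SE). High glucose replicate 1 was the highest library, and without it BMP4 was 1.71-fold higher. In bulk RNA, fewer cells expressing a gene and less RNA per cell cannot be told apart, here and below.

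The receptor BMPR2 (ENSG00000204217.13; GRCh37 chromosome 2, 203241050 to 203432474, plus strand) is the type II receptor of BMP ligands. It stood at 152, 151, 152 and 144 CPM in low glucose replicates 1 to 4 and at 126, 168, 158 and 174 CPM in high glucose replicates 1 to 4. High glucose replicate 1 was the lowest of all 8 libraries and the other 3 high glucose libraries were the highest, so the groups overlapped only through that library. The means were 149.7 ± 3.94 and 156.3 ± 21.5 CPM (SD, n = 4 each), and the log2 difference of 0.05 ± 0.11 (SE) was smaller than its error. Without high glucose replicate 1 the high glucose mean was 166.5 ± 8.13 CPM (SD, n = 3), 1.11-fold above low glucose, the log2 difference was 0.15 and the groups no longer overlapped. BMPR2 has one of the longer transcripts of the set, 12.1 kb, and after a correction for transcript length in each library its log2 difference was 0.08.

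Of the secreted antagonists, GREM1 (ENSG00000166923.11; GRCh37 chromosome 15, 33010205 to 33037307, plus strand) encodes gremlin 1, a cystine-knot protein that binds BMP2, BMP4 and BMP7. Low glucose replicates 1 to 4 held 73.7, 72.6, 70.8 and 68.5 CPM, and high glucose replicates 1 to 4 held 32.3, 31.4, 32.7 and 31.4 CPM. The 4 high glucose libraries were nearly equal, and all lay far below the low glucose libraries. GREM1 averaged 71.4 ± 2.26 CPM at 5 mM and 31.96 ± 0.684 CPM at 25 mM glucose (SD, n = 4 each), 2.23-fold lower, with a log2 difference of -1.13 ± 0.03 (SE), the smallest error of the 10 genes. High glucose replicate 1 differed from the other 3 of its group by 0.02 on the log2 scale, and without it GREM1 was 2.24-fold lower. An antisense gene, GREM1-AS1, covers 1.08% of the exons of GREM1 on the other strand.

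DAND5 (ENSG00000179284.5; GRCh37 chromosome 19, 13075973 to 13085574, plus strand) had the largest fold difference of the 10 genes. It encodes a secreted antagonist of the DAN family, known as Coco or Cerberus-like 2, that binds Nodal and BMP ligands and sets left-right asymmetry in the embryo. The levels were 15.2, 12.8, 15.03 and 15.2 CPM in low glucose replicates 1 to 4 and 3.53, 3.27, 2.80 and 2.49 CPM in high glucose replicates 1 to 4. Low glucose replicate 2 was somewhat below the other 3 and still stood above every high glucose library. DAND5 averaged 14.5 ± 1.18 CPM at 5 mM and 3.02 ± 0.465 CPM at 25 mM glucose (SD, n = 4 each), 4.81-fold lower, with a log2 difference of -1.95 ± 0.10 (SE). Leaving out high glucose replicate 1 made it 5.09-fold lower. All 8 libraries were above the floor of 3 reads, but 17.9% of the 31-base words of its canonical transcript also occur in transcripts of other genes, ZBTB8B and GNB1 among them, so part of its reads could be shared. The 120 bases before its RefSeq start are printed because it differed most, from GRCh38.p14 at chr19:12969456-12969575 on the plus strand, 5′ to 3′. They hold none of the motifs described for SMAD6 and the ID genes below.
DAND5: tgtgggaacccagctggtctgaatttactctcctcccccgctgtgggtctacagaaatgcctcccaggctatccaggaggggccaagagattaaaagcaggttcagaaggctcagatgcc

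Inside the cell, SMAD6 (ENSG00000137834.15; GRCh37 chromosome 15, 66994574 to 67075187, plus strand) blocks BMP receptors and the receptor-activated SMADs and is itself induced by BMP. It stood at 9.75, 10.9, 10.7 and 10.8 CPM in low glucose replicates 1 to 4 and at 15.95, 17.5, 18.97 and 19.9 CPM in high glucose replicates 1 to 4. All high glucose libraries were above all low glucose libraries, and high glucose replicate 1 was the closest of them to the control level. SMAD6 averaged 10.5 ± 0.535 CPM at 5 mM and 18.1 ± 1.74 CPM at 25 mM glucose (SD, n = 4 each), 1.71-fold higher, with a log2 difference of 0.72 ± 0.07 (SE). It was 1.78-fold higher when high glucose replicate 1 was left out.

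Windows of 250 bases before to 50 bases after RefSeq starts were given for 9 of the 10 genes, in 12 windows, and were searched on both strands for the SMAD-binding palindrome GTCTAGAC, the GC-rich SMAD box GGCGCC and the TATA-like run TATAA. The palindrome was in the SMAD6 window alone, 12 bases before the start, and in 71 of 35116 windows of all genes (0.202%). GGCGCC was in windows of BMP4, BMPR2 and GREM1, and in 19.2% of all windows. A match is a description of letters and not a binding site. The 120 bases before the SMAD6 start are printed to show the palindrome, in capitals, from GRCh38.p14 at chr15:66702116-66702235 on the plus strand, 5′ to 3′.
SMAD6: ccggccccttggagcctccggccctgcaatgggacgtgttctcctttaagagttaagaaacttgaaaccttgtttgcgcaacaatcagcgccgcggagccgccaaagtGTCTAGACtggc

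The 4 ID genes differed in direction. ID1 and ID3 were lower at high glucose, ID2 did not differ beyond its spread, and ID4 was higher. All 4 encode dominant-negative partners of the E proteins TCF3, TCF4 and TCF12 and are textbook BMP targets. The 120 bases before each RefSeq start are printed to set the 4 promoters side by side, from GRCh38.p14, 5′ to 3′ on the strand of the gene. The windows are chr20:31605169-31605288 (plus strand) for ID1, chr2:8681936-8682055 (plus strand) for ID2, chr1:23559502-23559621 (minus strand) for ID3 and chr6:19837250-19837369 (plus strand) for ID4. Capitals mark TATAA on either strand, which starts 29 to 32 bases before the start of ID1, ID3 and ID4 and is not found in the ID2 window. It is also in a BMP4 window, and 20.4% of all windows hold it. In ID1 the capitals cover matches on both strands that overlap each other.
ID1: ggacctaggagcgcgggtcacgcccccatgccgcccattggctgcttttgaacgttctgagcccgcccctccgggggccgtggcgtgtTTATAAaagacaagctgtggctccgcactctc
ID2: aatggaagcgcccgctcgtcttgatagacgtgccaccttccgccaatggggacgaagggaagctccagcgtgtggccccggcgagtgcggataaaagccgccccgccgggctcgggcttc
ID3: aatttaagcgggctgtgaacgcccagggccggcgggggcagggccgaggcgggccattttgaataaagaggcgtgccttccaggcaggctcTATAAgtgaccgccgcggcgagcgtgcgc
ID4: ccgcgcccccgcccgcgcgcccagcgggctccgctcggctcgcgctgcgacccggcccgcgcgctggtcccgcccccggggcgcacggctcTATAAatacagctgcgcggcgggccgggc

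ID1 (ENSG00000125968.9; GRCh37 chromosome 20, 30193086 to 30194318, plus strand) stood at 13.2, 13.3, 13.3 and 11.9 CPM in low glucose replicates 1 to 4 and at 9.46, 6.46, 5.20 and 6.58 CPM in high glucose replicates 1 to 4. Each high glucose library was below each low glucose library, with high glucose replicate 1 the closest to the control level. ID1 averaged 12.9 ± 0.693 CPM at 5 mM and 6.92 ± 1.80 CPM at 25 mM glucose (SD, n = 4 each), 1.86-fold lower, and the log2 difference was -0.84 ± 0.16 (SE). Without high glucose replicate 1 it was 2.12-fold lower, with a log2 difference of -0.98, and with the length trend removed from all libraries it was -0.72.

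ID3 (ENSG00000117318.9; GRCh37 chromosome 1, 23884417 to 23885992, minus strand) had the largest difference of the family. Its levels were 16.8, 14.3, 16.4 and 16.2 CPM in low glucose replicates 1 to 4 and 8.12, 6.54, 5.20 and 4.00 CPM in high glucose replicates 1 to 4. The groups were far apart, and again high glucose replicate 1 was the highest of its group. ID3 averaged 15.9 ± 1.09 CPM at 5 mM and 5.96 ± 1.77 CPM at 25 mM glucose (SD, n = 4 each), 2.67-fold lower, with a log2 difference of -1.32 ± 0.19 (SE). ID3 was 3.04-fold lower without high glucose replicate 1 and the log2 difference was -1.46, and with the length trend removed it was -1.20.

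ID2 (ENSG00000115738.10; GRCh37 chromosome 2, 8818975 to 8824591, plus strand) held 8.67, 7.54, 9.004 and 6.99 CPM in low glucose replicates 1 to 4 and 9.46, 8.21, 7.59 and 6.84 CPM in high glucose replicates 1 to 4. The ranges covered each other. The means were 8.05 ± 0.944 and 8.03 ± 1.11 CPM (SD, n = 4 each), and the log2 difference of -0.01 was within its error of 0.12 (SE). Of the 31-base words of its transcript, 6.30% also occur in its pseudogene ID2B.

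ID4 (ENSG00000172201.12; GRCh37 chromosome 6, 19837601 to 19842428, plus strand) stood at 19.5, 19.8, 17.9 and 17.6 CPM in low glucose replicates 1 to 4 and at 25.1, 21.9, 22.6 and 23.5 CPM in high glucose replicates 1 to 4. The high glucose libraries were all higher, by a small margin. The mean went from 18.7 ± 1.12 to 23.3 ± 1.35 CPM (SD, n = 4 each), 1.24-fold higher, with a log2 difference of 0.30 ± 0.06 (SE). It was 1.21-fold higher without high glucose replicate 1.

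Per kilobase of annotated transcript, the scale on which genes can be compared, the 4 ID genes summed to 40.9 ± 1.90 CPM per kb at low and 25.5 ± 4.52 CPM per kb at high glucose (SD, n = 4 each). The low glucose sums ran from 39.1 to 42.7 and the high glucose sums from 22.2 to 31.9 CPM per kb, without overlap. High glucose replicate 1 was the highest of its group for each of the 4 ID genes and so had the highest sum. The sum and the shares were not computed without that library. The make-up of the sum differed as well. The share of ID3 went from 40.98% ± 2.27 to 24.3% ± 3.76 and that of ID1 from 32.1% ± 1.44 to 27.4% ± 3.27 (SD, n = 4 each). The share of ID4 went from 11.8% ± 0.843 to 23.9% ± 3.24, and that of ID2, whose own mean differed by less than its spread, from 15.1% ± 1.12 to 24.4% ± 1.40. ID3 was thus the leading ID transcript at low glucose, whereas at high glucose the ranges of neighboring ID genes in the order of levels overlapped.

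**Figure D2:**
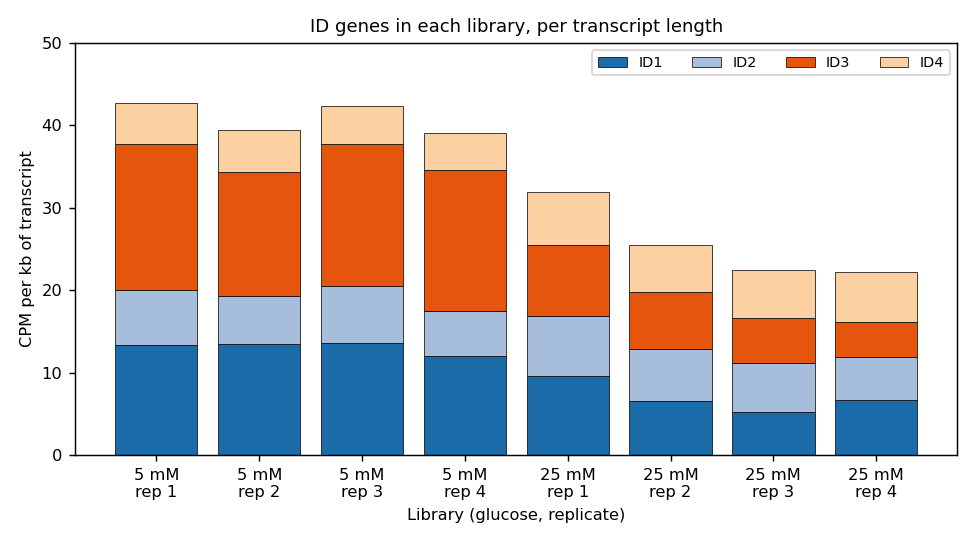
CPM per kb of canonical transcript (vertical axis) of ID1, ID2, ID3 and ID4, stacked, in each of the 8 libraries. The bars are 39.1 to 42.7 CPM per kb high at 5 mM and 22.2 to 31.9 CPM per kb at 25 mM glucose, and the ID3 segment shrinks most.

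BMP1 (ENSG00000168487.19; GRCh37 chromosome 8, 22022653 to 22069839, plus strand) is not a ligand despite its name but a tolloid metalloprotease that removes the C-propeptide of fibrillar procollagens and cleaves chordin. It stood at 131, 134, 134 and 139 CPM in low glucose replicates 1 to 4 and at 81.2, 75.97, 80.9 and 70.7 CPM in high glucose replicates 1 to 4. The groups were well separated. BMP1 averaged 134.7 ± 3.22 CPM at 5 mM and 77.2 ± 4.96 CPM at 25 mM glucose (SD, n = 4 each), 1.75-fold lower, with a log2 difference of -0.80 ± 0.05 (SE), and without high glucose replicate 1 it was 1.78-fold lower.

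Ordered by CPM per kb at low glucose, BMP1 (37.5 ± 0.896, SD, n = 4) led, followed by BMP4 (25.4 ± 1.79), ID3 (16.8 ± 1.15), ID1 (13.1 ± 0.705), BMPR2 (12.4 ± 0.326), DAND5 (8.16 ± 0.665), ID2 (6.20 ± 0.727), GREM1 (4.90 ± 0.155), ID4 (4.83 ± 0.289) and SMAD6 (2.75 ± 0.140). ID1 and BMPR2 overlapped in range, as did GREM1 and ID4. BMP4 led at high glucose (44.6 ± 2.36), ahead of BMP1 (21.5 ± 1.38) and BMPR2 (12.9 ± 1.78). ID1 (7.04 ± 1.83), ID3 (6.28 ± 1.86), ID2 (6.18 ± 0.852) and ID4 (6.01 ± 0.350) followed, each overlapping the next, and SMAD6 (4.72 ± 0.454), GREM1 (2.19 ± 0.0469) and DAND5 (1.70 ± 0.261) came last. BMP4 and BMP1 thus swapped places at the top, and DAND5 went from the sixth place to the last. The value of GREM1 per kb rests on an annotated canonical transcript of 14.6 kb.

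**Figure D3:**
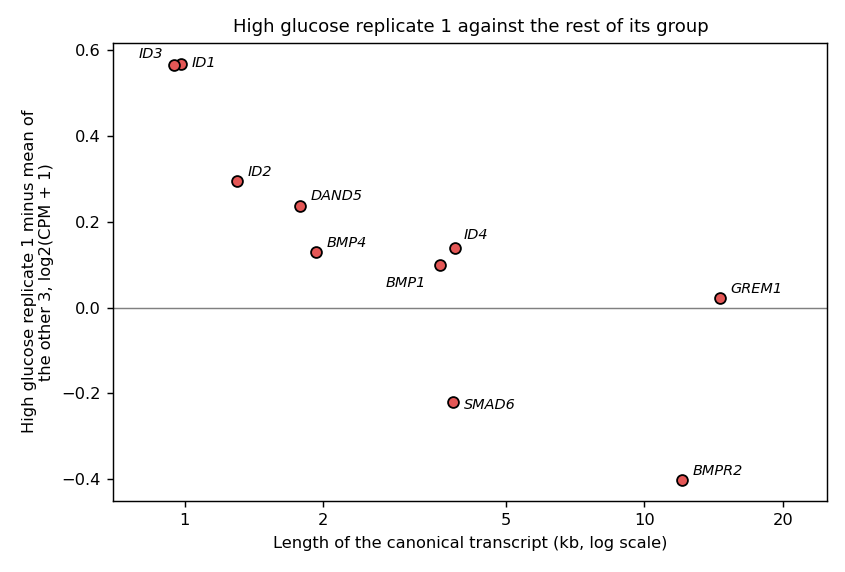
Log2(CPM + 1) of high glucose replicate 1 minus the mean of the other 3 high glucose libraries (vertical axis) against canonical transcript length in kb (horizontal log axis) for the 10 genes. ID1 and ID3, the shortest, sit at 0.57, BMPR2 sits at -0.40, and GREM1, the longest, sits at 0.02.

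For DAND5, ID1, ID3 and GREM1, the genes with the most similar profile over the 8 libraries were sought among 11296 genes with a mean of at least 5 CPM, by the root mean square (RMS) difference of centered log2(CPM + 1) values. DAND5 was closest to MXRA8 (RMS difference 0.0758), BAALC (0.108) and MMP11 (0.123), a matrix metalloprotease. ID1 was closest to HINT2 (0.0476), RFXANK (0.0742) and NIPSNAP3A (0.0743), and ID3 to IFI27L2 (0.0551), KLHL22 (0.0995) and TMEM59L (0.111). GREM1 was closest to GALNT16 (0.0375), the mesenchymal homeobox gene PRRX1 (0.0419) and the acetyl-CoA synthetase gene ACSS2 (0.0482). Each of these genes was lower at high glucose, as the measure requires.

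The other genes of the pathway were taken from a list of 64, of which 57 were in the table. They were compared between the groups with limma, with p-values adjusted over all 21059 genes. Of the 57, 35 passed an adjusted p of 0.05 (61.4%), 25 higher and 10 lower at high glucose, against 46.8% of all genes, 22.0% higher and 24.8% lower. Of the 45 with a mean of at least 1 CPM, 33 passed (73.3%), against 62.1% of the 14372 genes at that level. The median log2 difference was 0.11 over the list and -0.01 over all genes. The list was chosen with earlier results of these data known and these shares are a description. The shares over all genes are also the background for each count by role below, and nothing is read from those counts.

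**Figure D4:**
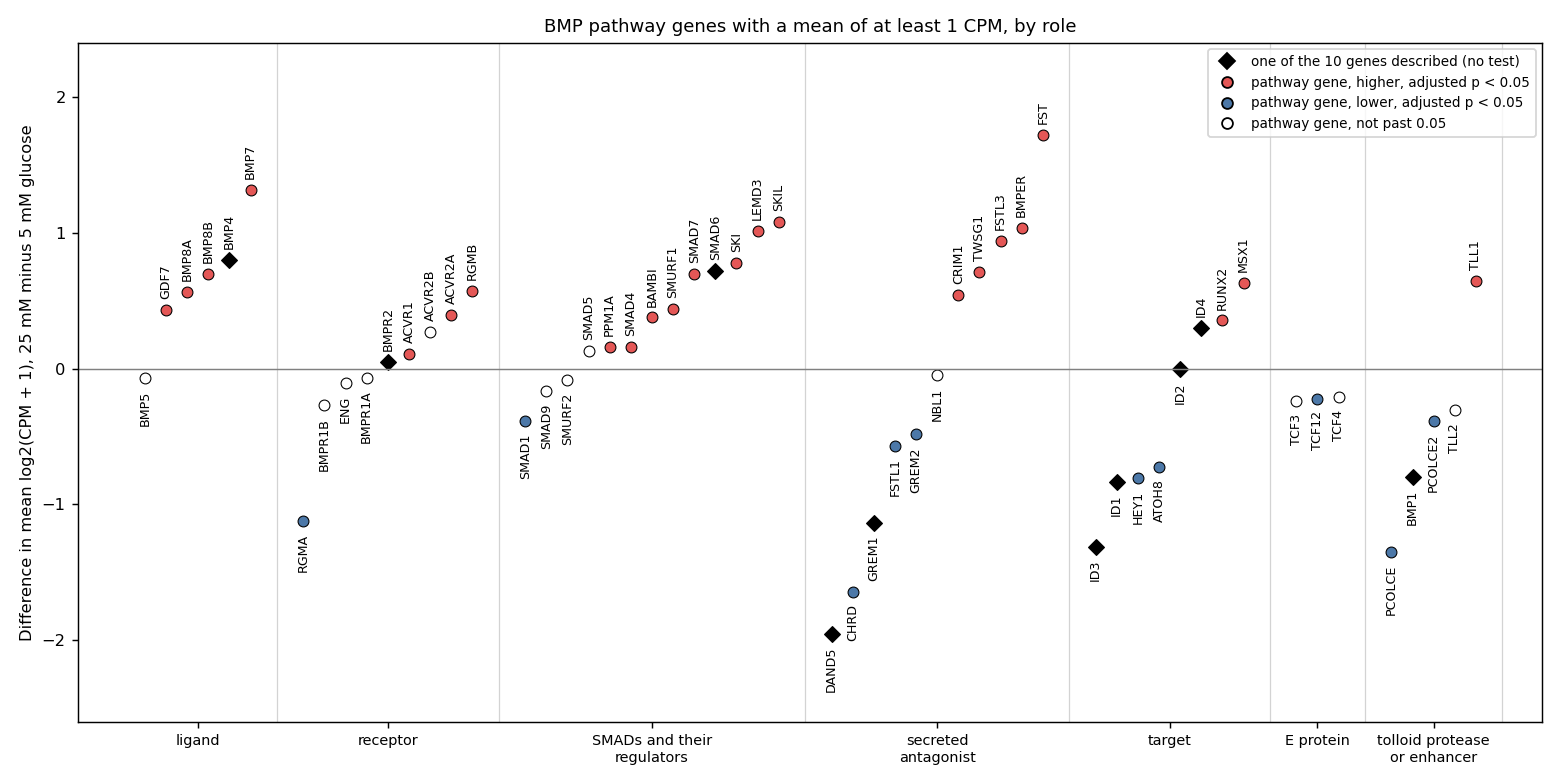
Difference in mean log2(CPM + 1), 25 mM minus 5 mM glucose (vertical axis), for the 10 genes described (black diamonds, no test) and the 45 other pathway genes with a mean of at least 1 CPM (circles), in columns by role. Red and blue circles passed an adjusted p of 0.05 in limma, higher or lower, and white circles did not. Among antagonists the values run from -1.95 for DAND5 to 1.72 for FST.

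Among the 10 other ligands in the table, 6 were higher and none was lower, with a median log2 difference of 0.43. Only 5 had a mean of at least 1 CPM, and 4 of these were higher. The remaining calls, BMP6 (0.243 and 0.674 CPM) and GDF6 (0.175 and 1.10 CPM), had low glucose means near or below the floor. BMP7, which like BMP4 signals through SMAD1, SMAD5 and SMAD9, rose from 21.1 ± 1.07 to 54.1 ± 3.74 CPM (SD, n = 4 each), 2.56-fold, a log2 difference of 1.31 (limma, adjusted p = 4.5e-06). GDF7 rose from 12.2 ± 0.983 to 16.9 ± 0.739 CPM (limma, adjusted p = 9.7e-04). BMP8A was at 1.91 ± 0.322 and 3.33 ± 0.747 CPM (limma, adjusted p = 0.0176), and it shares 20% of its 31-base words with other transcripts, BMP8B among them. BMP2 was at 0.201 ± 0.170 and 0.527 ± 0.229 CPM, at or near the floor, and did not pass (limma, adjusted p = 0.0746), but it did without low glucose replicate 2 (0.0416) and with the length correction (0.0363).

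Of 9 receptors and coreceptors in the table, 3 were higher and 1 was lower, and the median log2 difference was 0.02 over the 8 with a mean of at least 1 CPM. The type I receptor BMPR1A stood at 40.5 ± 2.996 and 38.6 ± 1.01 CPM (limma, adjusted p = 0.358, and 0.0408 without low glucose replicate 4), with 26.0% of its words shared with other transcripts, pseudogenes among them. Another type I receptor, ACVR1, was 0.11 higher on the log2 scale (limma, adjusted p = 0.0278), a call lost in 7 of 17 alternative settings, among them those without low glucose replicate 1, 2 or 4 or high glucose replicate 1 (limma, adjusted p = 0.0573 to 0.0734). The type II receptor ACVR2A rose from 11.5 ± 0.439 to 15.4 ± 1.32 CPM (limma, adjusted p = 0.00202). The BMP coreceptors of the repulsive guidance molecule family went in opposite directions, with RGMB rising from 37.9 ± 2.41 to 57.003 ± 6.37 CPM (limma, adjusted p = 0.00142) and RGMA falling from 2.35 ± 0.291 to 0.553 ± 0.290 CPM, near the floor and 4.24-fold lower (limma, adjusted p = 4.6e-04). Another gene covers 60.1% of the exons of RGMB on the other strand. Whether counting used the strand is not stated, so part of the RGMB reads could come from that gene.

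Of the 12 other SMADs and SMAD regulators, 8 were higher and 1 was lower, with a median log2 difference of 0.27. All 12 had a mean of at least 1 CPM, and 75% were called, against 62.1% of all genes at that level. SMAD7, the inhibitory SMAD of both the BMP and TGF-β branches, rose 1.68-fold from 10.5 ± 0.645 to 17.6 ± 1.24 CPM (limma, adjusted p = 1.0e-04), beside the 1.71-fold difference of SMAD6. The other 3 genes named were those of the role with the smallest adjusted p. LEMD3, an inner nuclear membrane protein that binds receptor-activated SMADs, went from 20.2 ± 0.734 to 41.9 ± 2.83 CPM (limma, adjusted p = 9.5e-06). The corepressor gene SKI went from 41.8 ± 1.80 to 72.4 ± 3.12 CPM (limma, adjusted p = 1.0e-05) and its relative SKIL from 38.2 ± 3.89 to 81.5 ± 5.17 CPM (limma, adjusted p = 4.1e-05). SMURF2, a ubiquitin ligase that targets SMADs and their receptors, had a log2 difference of -0.09 (limma, adjusted p = 0.23). The related SMURF1 rose from 71.6 ± 2.77 to 97.6 ± 8.98 CPM, a log2 difference of 0.44 (limma, adjusted p = 0.00159). Both SMURF genes are outside the rule for named genes.

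The receptor-activated SMAD1 fell from 8.72 ± 0.765 to 6.45 ± 0.792 CPM, a log2 difference of -0.39 (limma, adjusted p = 0.0152). SMAD5, at 60.5 ± 1.91 and 66.6 ± 4.42 CPM, did not pass (limma, adjusted p = 0.0597), but it did with median-of-ratios scaling (0.0282), equal library totals (0.0372) or a filter of 5 CPM (0.0488). The shared partner SMAD4 was 0.16 higher on the log2 scale (limma, adjusted p = 0.0159). The calls of SMAD1 and SMAD4 were lost with quantile normalization, where the adjusted p values in limma were 0.0637 and 0.0627, and that of SMAD4 also with the length correction (limma, adjusted p = 0.114).

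Secreted antagonists other than GREM1 and DAND5 split in direction, with 5 of 13 higher and 3 lower. Chordin, CHRD, the substrate of BMP1, fell 3.30-fold from 37.6 ± 1.90 to 11.4 ± 1.21 CPM (limma, adjusted p = 5.0e-06). Follistatin, FST, which binds activins and with lower affinity some BMPs, rose 3.43-fold from 18.7 ± 1.01 to 63.96 ± 6.06 CPM (limma, adjusted p = 4.6e-06). The follistatin-like gene FSTL3 rose from 125.4 ± 3.31 to 241.5 ± 11.7 CPM (limma, adjusted p = 3.8e-06). Noggin, NOG, was below the floor of 3 reads in both group means.

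Among the tolloid proteases and procollagen C-proteinase enhancers beside BMP1, 1 of 4 was higher and 2 were lower. PCOLCE, the enhancer of BMP1 activity on procollagens, fell 2.53-fold from 837 ± 26.8 to 330.4 ± 45.4 CPM (limma, adjusted p = 3.0e-05). TLL1, a tolloid-like protease of the BMP1 family, went the other way, from 11.3 ± 1.22 to 18.2 ± 1.30 CPM (limma, adjusted p = 6.4e-04). An antisense gene, PCOLCE-AS1, covers 28.8% of the exons of PCOLCE on the other strand, and part of the PCOLCE reads could come from it. PCOLCE2 was at 10.9 ± 1.26 and 8.15 ± 1.35 CPM (limma, adjusted p = 0.0387), a call lost in 9 of 17 alternative settings, among them those without low glucose replicate 1, 3 or 4 or high glucose replicate 2, 3 or 4 (limma, adjusted p = 0.0751 to 0.096).

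Of 6 BMP-responsive transcription factor genes other than the ID genes, 2 were higher and 2 were lower. ATOH8 fell from 11.2 ± 0.602 to 6.38 ± 0.560 CPM (limma, adjusted p = 1.5e-04) and HEY1, also a Notch target, from 86.01 ± 5.96 to 48.7 ± 1.92 CPM (limma, adjusted p = 2.9e-05). MSX1 rose from 3.64 ± 0.389 to 6.22 ± 1.17 CPM (limma, adjusted p = 0.00521). RUNX2, the other gene called higher and outside the rule for named genes, had a log2 difference of 0.36 (limma, adjusted p = 0.00571). MSX2 and DLX5 did not pass (limma, adjusted p = 0.783 and 0.538), with group means below 1 CPM. The log2 differences of ATOH8 (-0.72) and HEY1 (-0.81) lay near that of ID1 (-0.84), whereas ID4 (0.30) and MSX1 (0.63) were positive. ID3 (-1.32) was lower still, and ID2 (-0.01) was within its error.

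The E protein genes, whose products the ID proteins bind, differed little. TCF12 went from 110.8 ± 4.06 to 95.2 ± 7.48 CPM, a log2 difference of -0.22 (limma, adjusted p = 0.0189). TCF3 was at 72.8 ± 4.83 and 61.7 ± 6.55 CPM (limma, adjusted p = 0.0534), and TCF4 at 15.2 ± 1.38 and 13.03 ± 1.55 CPM (limma, adjusted p = 0.124). Without low glucose replicate 2 or 4, TCF12 no longer passed (limma, adjusted p = 0.0525 and 0.0503), nor did it with median-of-ratios scaling (0.0555). TCF3 passed without high glucose replicate 1 (limma, adjusted p = 0.0286) and with the length correction, quantile normalization or either filter on low values (0.0138 to 0.0186), and TCF4 with the length correction (0.0458).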

How the data were processed

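RNA was isolated with the RNeasy Plus Mini kit and sequenced on a HiSeq per the labels. The authors deposited 1 table of CPM values, scaled with TMM factors from edgeR. The study's methods, written first for tumors, name stranded libraries, Trimmomatic, TopHat and hg19, whereas the submitters' processing notes name hg38, so the build is not settled, and whether counting used the strand is not stated. Dividing each value by that of 1 read, the commonest value above 0 of its library, gave 72.3% to 74.1% within 0.01 of a whole read among values of 0.5 to 200 reads, so whole reads were not recovered and no count test was run. Of 21077 lines, 18 Y-chromosome copies identical to their X copies were left out.

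Values were analysed as log2(CPM + 1), with a pseudocount of 1 CPM and no filter. Groups were compared with limma 3.58.1 in R 4.3.3 (lmFit, eBayes with a trend, 2-sided, no covariate), Benjamini-Hochberg adjusted over 21059 genes and called at 0.05. The script was checked on simulated data. Transcript lengths and gene positions came from a GENCODE annotation on GRCh37, and promoter windows from RefSeq on GRCh38.p14. Named pathway genes were 13 core genes and, per role, up to 3 with the smallest adjusted p under 0.05 and a mean of at least 1 CPM. The 10 genes, the lists and the tests were chosen with earlier results of these data known. Alternatives were other pseudocounts, filters and scalings, a length correction, a replicate block and leaving out each library.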

Additional observations from a re-analysis of the deposited data

Results flagged for a closer look

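For each group of 4 libraries, the distance of the most extreme library from the next was taken as a ratio to the whole range, and 7 of 78 groups passed Dixon's 95% critical value, where chance gives about 3.9. Low glucose replicate 4 was low for BMPR2 (144 CPM against 151 to 152 CPM, ratio 0.901) and for ID1 (11.9 CPM against 13.2 to 13.3 CPM, ratio 0.886). Low glucose replicate 2 was low for DAND5 (12.8 CPM against 15.03 to 15.2 CPM, ratio 0.944) and high for TCF4 (17.2 CPM against 14.4 to 14.7 CPM, ratio 0.89). High glucose replicate 3 was high for SMAD7 (19.5 CPM against 16.98 to 17.01 CPM, ratio 0.985) and low for FST (54.9 CPM against 66.03 to 67.8 CPM, ratio 0.865). NOG was listed at 0.17 CPM in low glucose replicate 3 and at 0 in the other 3 libraries of the group (ratio 1), below the floor of 3 reads. BMPR2 in high glucose replicate 1 did not pass this criterion. No cause was tested for these libraries.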

How the results depend on the processing

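Of the 57 other pathway genes, 29 to 35 were called when 1 library was left out and 30 to 38 under the other alternatives, against 35, with 20 to 27 higher and 8 to 12 lower over all of these. The number of the 10 genes whose groups did not overlap was 8 in every alternative but the fit without high glucose replicate 1, where BMPR2 made it 9. No called log2 difference changed sign, whereas those of BMPR2 (-0.05 to 0.15) and ID2 (-0.08 to 0.13), whose groups overlapped, did. For the 10 genes, 134 values moved by less than the spread between replicates and 6 moved by more. The 6 were BMP1 with quantile normalization (-0.90), GREM1 with median-of-ratios scaling (-1.09), quantile normalization (-1.19) and length correction (-1.09), and DAND5 with pseudocounts of 0.1 (-2.24) and 0.5 CPM (-2.10). Among the named pathway genes, 451 values kept their side of the threshold, 23 no longer passed and 12 newly passed, and the cause was not tested.

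Replicate numbers are shared between the groups, but same-numbered libraries did not deviate together (correlations of 0.05, -0.00482, 0.02 and -0.04). Whether same-numbered libraries came from the same experiment is not stated, and these correlations cannot settle it. With the replicate block, 32 pathway genes were called, 23 higher and 9 lower, and BMP8A (limma, adjusted p = 0.0749) and PCOLCE2 (limma, adjusted p = 0.0879) were lost. The number of libraries, 4 in each group, and levels near 3 reads, as for BMP2 and NOG, limit the precision.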
